A study of Homo sapiens with 4 samples.

Results

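The loci of 8 genes for SR splicing factors, SRSF1, SRSF2, SRSF3, SRSF6, SRSF7, SRSF11, TRA2A and TRA2B, were examined for peaks of RNA recovered with the RNA-binding protein HuR from WS1 cells, a human skin fibroblast line. WS1 cultures had received 5 Gy of X-rays or no irradiation (0 Gy), and each dose gave 1 HuR immunoprecipitation library (RIP-seq) and 1 library recovered with control immunoglobulin (IgG), 4 libraries in all. The labels state neither the time between irradiation and harvest nor the number of cultures. The comparison asks which RNAs were recovered with HuR over IgG at 5 Gy and at 0 Gy. The data were 2 lists of peaks, each of the HuR library over the IgG library of the same dose, with 36216 peaks at 5 Gy and 47930 peaks at 0 Gy. A peak was assigned to a gene when at least 1 bp of it lay inside a given hg19 interval for that gene. This put 40 of the 5 Gy peaks and 69 of the 0 Gy peaks at the 8 loci. The genes were chosen by the peaks at their loci in these same lists, SRSF3 because it held peaks at 0 Gy alone, so what follows is a description without a test. With 1 library per group, no difference between doses has a replicate check.

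SR proteins bind pre-mRNA through RNA recognition motifs and recruit the splicing machinery through a domain rich in arginine and serine dipeptides. They promote the inclusion of exons, and many of their genes limit their own output by including a "poison" exon that sends the transcript to nonsense-mediated decay. HuR, encoded by ELAVL1, is a largely nuclear protein that binds U-rich and AU-rich RNA, in introns and in 3′ untranslated regions, and is best known for stabilising mRNAs. TRA2A and TRA2B, the human counterparts of the Drosophila splicing regulator Transformer-2, are SR-like proteins and are treated here with the SR family.

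Peaks were listed at 7 of the 8 loci at 5 Gy and at all 8 at 0 Gy. SRSF3 had none at 5 Gy, whereas at 0 Gy its peaks covered 10063 bp. SRSF1, SRSF2 and SRSF6 were covered nearly from end to end at both doses, and all of their peaks but 1 carried the score of 3100, which 2000 peaks at 5 Gy and 2481 at 0 Gy share. Higher scores, which reach 3233.06, belong to 70 of the 5 Gy peaks and 85 of the 0 Gy ones, none of them at the 8 loci. SRSF7 had a few low-scoring peaks that covered more of the locus at 5 Gy than at 0 Gy. SRSF11, TRA2A and TRA2B were covered in many separate peaks, and some 0 Gy peaks of SRSF11 and TRA2A, with scores of at most 208.92, were unmatched at 5 Gy. The score is the authors' own peak score. Peaks called strong or weak below are so by this score alone, which is not a measured amount of RNA. The lowest score is about 60 at both doses. How the score depends on sequencing depth was not tested, and depth is unknown from these lists.

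**Figure D1:**
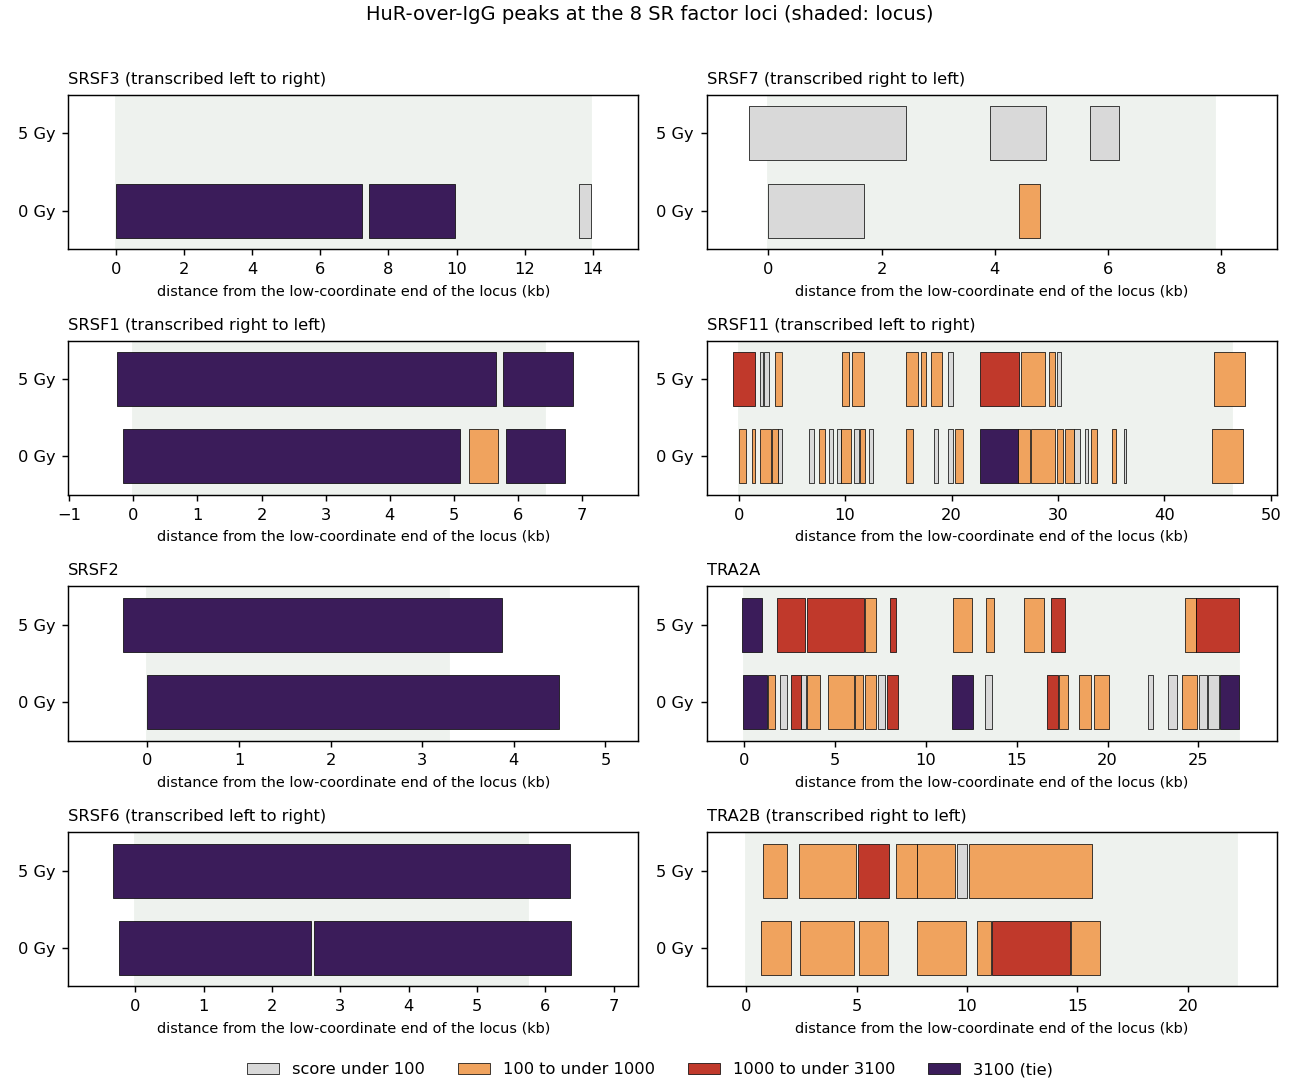
Peaks at each locus, with the 5 Gy list above the 0 Gy list, along the distance in kb from the low-coordinate end of the locus; boxes are peaks, their colour gives the score class, and the pale band is the locus. SRSF3 is empty at 5 Gy, SRSF1, SRSF2 and SRSF6 are filled at both doses, and SRSF11 and TRA2A hold short 0 Gy peaks in stretches that are empty at 5 Gy.

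Together the 8 intervals span 133122 bp. Peaks covered 62.5 kb of this at 5 Gy (46.9%) and 76.2 kb at 0 Gy (57.2%), and 53597 bp were covered at both doses. Covered length at 5 Gy came to 82.0% of the 0 Gy value, and to 94.5% of it when SRSF3 was left out, beside 91.7% for the lists as a whole. Most of the shortfall in covered length thus lay in SRSF3. Peak number at 5 Gy came to 58.0% of the 0 Gy value at the 8 loci, beside 75.6% for the lists as a whole. SRSF11 held 15 of the 40 peaks at 5 Gy and 28 of the 69 at 0 Gy, and without that locus the percentage was 61.0%.

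Of the 40 peaks at 5 Gy, 3 had no overlapping 0 Gy peak, where 27.0% of all peaks in the 5 Gy list had none. Of the 69 peaks at 0 Gy, 21 had no overlapping 5 Gy peak, where 41.9% of the whole 0 Gy list had none. The matched share was thus 92.5% at 5 Gy (Wilson 95% interval 80.1 to 97.4) and 69.6% at 0 Gy (57.9 to 79.2). The intervals treat peaks of 1 gene as independent and cover counting error only. The peaks at these loci were also longer than usual, with a median of 1093 bp at 5 Gy and 606 bp at 0 Gy, against 559 and 448 bp over the whole lists. Whether the length accounts for the matched share was not tested.

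**Figure D2:**
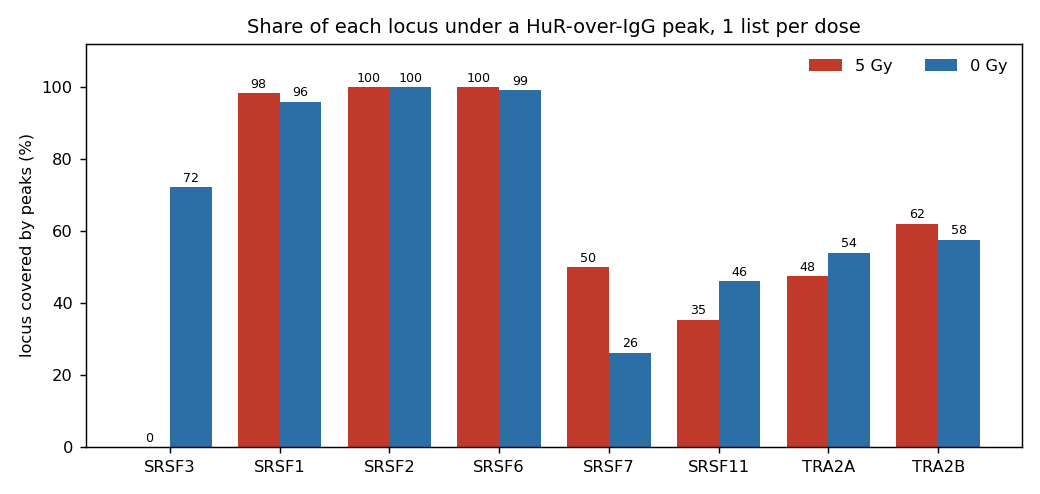
Percentage of each locus under a peak at 5 Gy (left bar) and at 0 Gy (right bar), from 1 list per dose and so without error bars. SRSF3 stands at 0% and 72.2%, SRSF7 at 50% and 26.2%, and SRSF11 at 35.4% and 46.1%, while SRSF1, SRSF2 and SRSF6 stand at 96.0% or more at both doses.

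SRSF3 (SRp20), the smallest of the SR proteins, takes part in splicing, mRNA export and the choice of polyadenylation site. The interval used for SRSF3 runs over 13937 bp of chromosome 6 (36562090 to 36576026). The 5 Gy list has no peak in it. The 0 Gy list has 3, which cover 72.2% of the interval. The first (36562108 to 36569300) is 7193 bp long with a score of 3100, and it begins 18 bp into the interval, at the 5′ end of the gene. The next (36569512 to 36572045) is 2534 bp long and is also tied at 3100. Together these 2 peaks form an almost unbroken block over the 5′ and middle parts of the interval. The last (36575691 to 36576026) is 336 bp long with a score of 66.71, close to the lowest score listed. The interval ends at the last base of that peak, so its far end follows the 0 Gy list rather than an annotated gene end, and whether the weak peak belongs to SRSF3 RNA was not tested. The 72.2% is thus a share of this interval. How much of the gene itself the block covers, and whether it reaches the 3′ end, was not analysed here.

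Only 6 of the 2566 peaks that score at least 3100 at 0 Gy (0.234%) lack an overlapping 5 Gy peak, and SRSF3 holds 2 of those 6. Of the 113 peaks at 0 Gy that are at least 7193 bp long, 6 (5.31%) lack one. These percentages describe how uncommon the pattern is and test nothing, since SRSF3 was picked for it. The numbering of the deposited 5 Gy list has no break at this place. Its peaks carry consecutive numbers with 0 missing, and the numbers 28931 and 28932 lie on either side of SRSF3. The numbers would reveal only rows removed after numbering. They cannot show whether reads or regions were lost before it.

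The surroundings of SRSF3 did hold peaks at 5 Gy. On the low-coordinate side the nearest was a 470 bp peak scoring 154.49 at 5 Gy, 49.2 kb away, and a 502 bp peak scoring 66.85 at 0 Gy, 49.7 kb away. On the other side the nearest was a 1082 bp peak scoring 274.28 at 5 Gy, 70.4 kb away, and a 700 bp peak scoring 109.51 at 0 Gy, 75.6 kb away. Within 100 kb of the interval there were 6 peaks at 5 Gy and 7 at 0 Gy. The strongest of these scored 1621.37 at 5 Gy (36653279 to 36655145) and 713.37 at 0 Gy (36653346 to 36655117). In each list 2 of these flanking peaks overlapped a peak of the other list, and 4 at 5 Gy and 5 at 0 Gy did not. Over the whole lists, 27.0% of the 5 Gy peaks and 41.9% of the 0 Gy peaks had no match. Whether so few flanking peaks depart from these shares was not tested. The flanks thus held peaks at both doses but were not the same in the 2 lists.

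**Figure D3:**
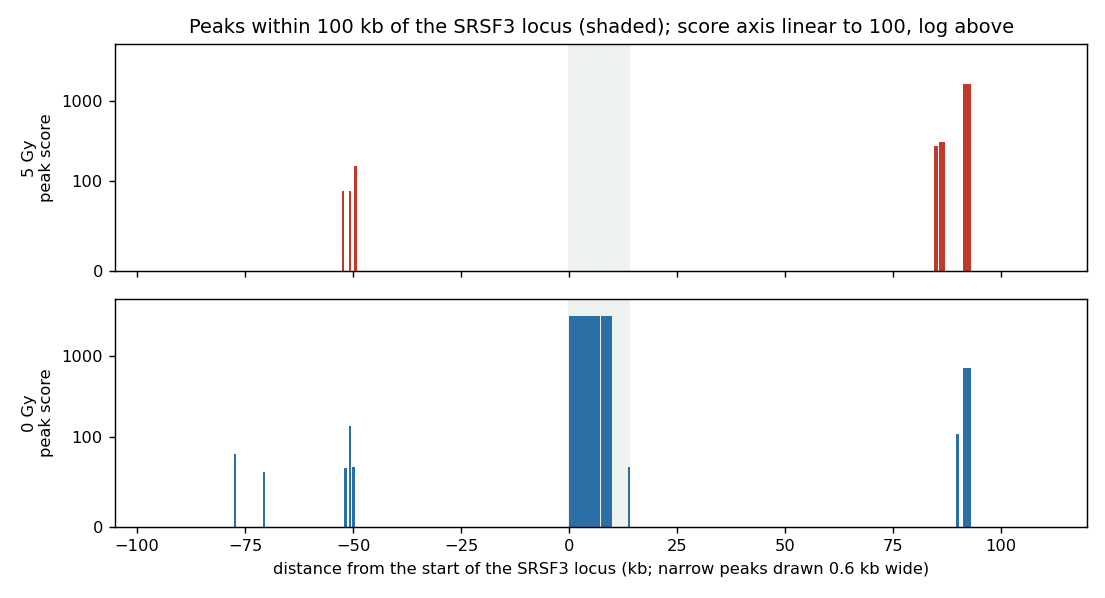
Peak scores within 100 kb of the SRSF3 interval (pale band) by distance in kb from its start, 5 Gy above and 0 Gy below, each bar as wide as its peak and at least 0.6 kb; the score axis is linear to 100 and logarithmic above. At 5 Gy the band is empty, and both flanks hold peaks at each dose, of which 2 per list overlap the other list.

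The lists hold neither the HuR and IgG signals separately nor the level of SRSF3 RNA in the cells, so their parts in the missing peaks cannot be told apart. In bulk libraries, fewer cells with an RNA and less of it per cell cannot be told apart either. RefSeq names 5 pseudogenes of SRSF3, 2 of SRSF6 and 1 each of SRSF1, SRSF2 and SRSF11, and of these genes only SRSF3 lacks peaks at 5 Gy. How reads that fit both the gene and a copy were placed is not given in the sources used here.

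The start regions of SRSF3, SRSF1 and SRSF6 are shown because peaks tied at 3100 reach the 5′ end of these genes. At SRSF1 the outermost peak reached 438 bp beyond the 5′ end of the interval at 5 Gy and 312 bp at 0 Gy. At SRSF6 it reached 329 bp beyond at 5 Gy and 247 bp at 0 Gy. SRSF2 has such peaks too, and TRA2A has them at or close to both ends of its interval at 0 Gy. Neither gene has an entry in the table used. The sequences are from RefSeq (GRCh38.p14), which had a start window for 6 of the 8 genes, while the peaks are placed on hg19, so no peak edge is marked. Each runs 5′ to 3′ in the direction of transcription, with 250 bases before the start in lower case and the first 50 transcribed bases in capitals.
SRSF3: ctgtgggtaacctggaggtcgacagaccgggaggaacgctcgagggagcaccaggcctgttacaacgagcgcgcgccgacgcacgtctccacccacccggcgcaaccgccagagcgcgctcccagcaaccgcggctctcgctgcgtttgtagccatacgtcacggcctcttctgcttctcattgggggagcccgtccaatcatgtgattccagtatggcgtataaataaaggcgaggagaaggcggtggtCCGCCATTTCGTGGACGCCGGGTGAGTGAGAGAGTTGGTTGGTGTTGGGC
SRSF1: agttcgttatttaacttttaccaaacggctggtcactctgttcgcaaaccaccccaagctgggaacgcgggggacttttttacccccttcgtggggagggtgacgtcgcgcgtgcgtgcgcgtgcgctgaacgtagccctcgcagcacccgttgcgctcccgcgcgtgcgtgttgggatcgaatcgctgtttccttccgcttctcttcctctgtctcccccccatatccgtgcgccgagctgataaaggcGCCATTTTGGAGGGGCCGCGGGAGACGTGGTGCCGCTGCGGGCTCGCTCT
SRSF6: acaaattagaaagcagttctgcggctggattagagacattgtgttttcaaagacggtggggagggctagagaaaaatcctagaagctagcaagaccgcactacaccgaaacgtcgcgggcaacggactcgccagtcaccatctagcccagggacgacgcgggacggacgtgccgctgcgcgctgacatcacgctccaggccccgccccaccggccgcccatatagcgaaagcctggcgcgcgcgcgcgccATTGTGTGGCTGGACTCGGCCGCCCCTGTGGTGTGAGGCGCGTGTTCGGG

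All 3 windows are rich in G and C (62.3% in SRSF3, 62.0% in SRSF1 and 62.7% in SRSF6), and T makes up 26.0%, 20% and 26.0% of their capitals, in the same order. As simple stand-ins for AU-rich and U-rich RNA, ATTTA and TTTTT were searched on both strands and counted separately; they cannot overlap each other on 1 strand. None of the 3 windows holds either motif in its capitals, and among 35116 RefSeq windows 4.14% hold ATTTA there and 6.44% hold TTTTT. Over all 300 bases, the SRSF3 window holds ATTTA on the opposite strand (TAAAT), the SRSF1 window holds both motifs as written, and the SRSF6 window holds TTTTT on the opposite strand. Of all windows, 30.5% hold ATTTA and 39.2% hold TTTTT. These matches describe the letters of the windows and are no binding sites.

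SRSF1 (SF2/ASF), a founding member of the family, acts in constitutive and alternative splicing and shuttles between nucleus and cytoplasm. Its interval on chromosome 17 (56078280 to 56084707) was covered to 98.3% at 5 Gy and 96.0% at 0 Gy. The 5 Gy list has 2 peaks there, of 5930 and 1089 bp, both scoring 3100. The 0 Gy list has 3, of 5263 bp (3100), 459 bp (253.91) and 920 bp (3100). The longer 5 Gy peak lay over the first and second of these and across the 136 bp between them. SRSF1 therefore had fewer peaks and slightly more covered length at 5 Gy. RefSeq lists a noncoding gene, LOC101929185, that overlaps SRSF1, and the peaks have no strand.

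SRSF2 (SC35), known as a marker protein of nuclear speckles and as an exon-inclusion factor, had 1 peak at each dose, both scoring 3100. The peak was 4130 bp long at 5 Gy (74729936 to 74734065 of chromosome 17) and 4494 bp at 0 Gy (74730198 to 74734691). Both spanned the interval of 3297 bp, apart from its first base at 0 Gy, and ran past its high-coordinate end. The 5 Gy peak began 262 bp lower and also ended lower than the 0 Gy peak. MFSD11 and the microRNA gene MIR636 overlap SRSF2 in RefSeq, and without strand their RNA cannot be told apart from that of SRSF2.

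SRSF6 (SRp55), a regulator of alternative splicing, was covered to 100% at 5 Gy and 99.2% at 0 Gy. A single 5 Gy peak of 6695 bp (42086175 to 42092869 of chromosome 20) lay over 2 peaks of the 0 Gy list, of 2821 and 3759 bp, which were 44 bp apart. All 3 scored 3100. The locus is isolated. The nearest other peak on the low-coordinate side was 2278 kb away at 5 Gy and 1841 kb away at 0 Gy, and on the other side 193 kb at 5 Gy and 56.3 kb at 0 Gy. RefSeq lists no gene that overlaps SRSF6.

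SRSF7 (9G8), which carries a zinc knuckle beside its RNA recognition motif and is the close relative of SRSF3, differed from the loci above in having only weak peaks. At 5 Gy it had 3, of 2779 bp (score 63.91), 1004 bp (68.81) and 515 bp (64.94). At 0 Gy it had 2, of 1712 bp (67.71) and 371 bp (172.10). No score at either dose reached 200, and the 0 Gy list held the highest one. Covered length was nevertheless 3946 bp at 5 Gy and 2069 bp at 0 Gy, and all of the sequence covered at 0 Gy was covered at 5 Gy too. The interval on chromosome 2 (38970741 to 38978636) thus showed wider and no stronger peaks at 5 Gy. At scores of at least 100 the order turned, with 0 bp at 5 Gy and 371 bp at 0 Gy.

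The 2779 bp peak of SRSF7 is long for its score. Of the 4536 peaks at 5 Gy that score under 70, 12 (0.265%) are at least as long, and their median length is 391 bp. The 0 Gy peak in the same place is likewise long for its score, with 32 of 6348 (0.504%) at least as long and a median of 336 bp. Both were picked as the longest SRSF7 peak of their list, so these percentages describe them and test nothing. Just outside the interval, 403 bp away on the low-coordinate side, the 5 Gy list holds a further peak of 1009 bp scoring 116.03, where the nearest 0 Gy peak on that side is 141 kb away. SRSF7 is transcribed towards lower coordinates, so this peak lies past the 3′ end of the interval. Near the 5′ end, the outermost peak began 1693 bp into the interval at 5 Gy and 3089 bp into it at 0 Gy.

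**Figure D4:**
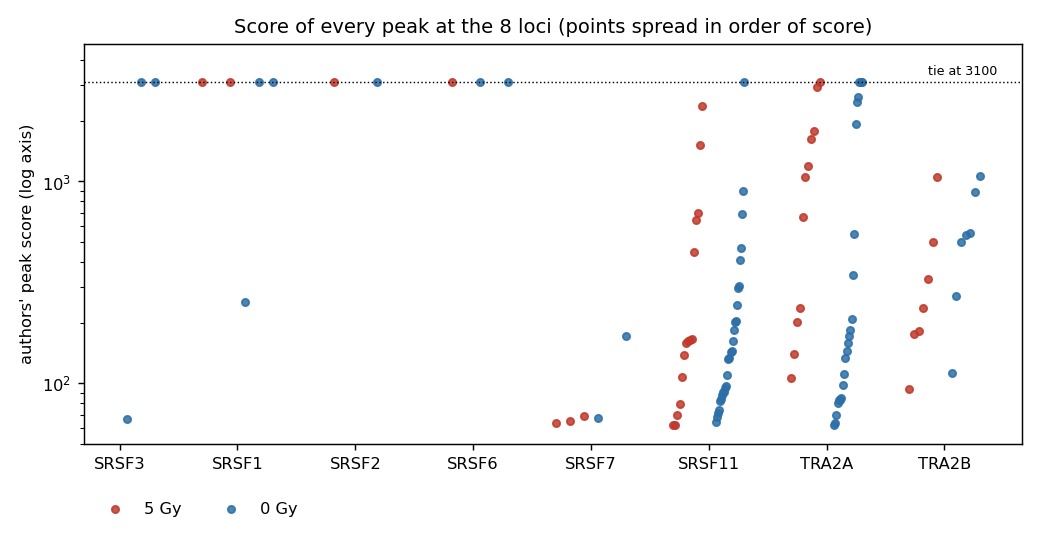
Score of every peak at each locus on a log axis, 5 Gy to the left of 0 Gy, 1 point per peak spread sideways in order of score, with a dotted line at the tie of 3100. SRSF1, SRSF2 and SRSF6 sit at the tie at both doses but for 1 peak, 2 of the 3 SRSF3 peaks sit there at 0 Gy and the other at 66.71, and no SRSF7 peak reaches 200.

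SRSF11 (p54), an SR-related protein, has the longest interval, 46335 bp of chromosome 1 (70671365 to 70717699), and the most peaks. The 15 peaks at 5 Gy ranged from 62.21 to 2365.88 in score with a median of 163, and the 28 peaks at 0 Gy from 64.33 to 3100 with a median of 138. Peaks covered 35.4% of the SRSF11 interval at 5 Gy and 46.1% at 0 Gy. Fewer and, by the median length, longer peaks were listed at 5 Gy, 667 bp against 556 bp at 0 Gy. The whole lists had the same order, with 559 bp at 5 Gy and 448 bp at 0 Gy.

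The strong peaks of SRSF11 were present at both doses. In the middle of the interval, 3 peaks at 5 Gy scored 2365.88, 694.97 and 447.03 over 6600 bp, and 3 at 0 Gy scored 3100, 407.31 and 901.10 over 6950 bp. At the 3′ end, a peak of 2893 bp scored 646.86 at 5 Gy and one of 2950 bp scored 689.21 at 0 Gy. At the 5′ end, the 5 Gy list has 1 peak of 2004 bp scoring 1522.50, which begins 509 bp before the interval. The 0 Gy list has peaks of 668 bp (470.05) and 336 bp (109.70) under it, and a 278 bp peak scoring 1153.70 that ends 45 bp outside the interval and so was not counted. The 5′ end thus reads as 1 long peak at 5 Gy and as several short ones at 0 Gy.

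Of the 28 SRSF11 peaks at 0 Gy, 12 met none at 5 Gy, which is near the 41.9% of the whole list. Those 12 had scores of 71.55 to 202.16 and a summed length of 5704 bp. Of its 15 peaks at 5 Gy, 1 had no match at 0 Gy (455 bp, score 157.65), beside 27.0% of the whole 5 Gy list. The longest stretch without a 5 Gy peak ran over 14376 bp, from 70701648 to 70716023, and held 6 of the unmatched 0 Gy peaks. The longest stretch without a 0 Gy peak, 8020 bp long, lay inside it, before the 3′ peak. Among the 6 pairs in which 1 peak of each list met only the other, the 5 Gy score was the higher in the pair at 70689465 to 70690501 (162.86 at 5 Gy and 68.11 at 0 Gy) and the lower in the other 5.

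TRA2A and TRA2B bind GAA-rich exonic enhancers and promote exon inclusion, and each is known to regulate the other. TRA2A spans 27257 bp of chromosome 7 (23544400 to 23571656) and had 11 peaks at 5 Gy and 23 at 0 Gy, which covered 47.5% of it at 5 Gy and 54.0% at 0 Gy. The median score was 1057 at 5 Gy, with a range of 106.17 to 3100, and 158 at 0 Gy, with a range of 61.90 to 3100. Median length came to 1016 bp at 5 Gy, against 586 bp at 0 Gy, where the whole lists had 559 and 448 bp. The 5 Gy list held fewer peaks at TRA2A, longer and higher-scoring by these medians. In 3 places 1 of them met several 0 Gy peaks that met no other 5 Gy peak. The medians do not compare matched peaks, and the low-scoring peaks of the 0 Gy list enter them. At scores of at least 100, TRA2A had 11 peaks at 5 Gy and 15 at 0 Gy. The score of 3100 was reached by 1 TRA2A peak at 5 Gy and 3 at 0 Gy. With peaks within 1 kb joined, TRA2A had 4 peaks at each dose, and at scores of at least 250 it had 7 at 5 Gy and 8 at 0 Gy. At scores of at least 100, TRA2A had the greater covered length at 5 Gy (12956 bp, against 11499 bp at 0 Gy).

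A pair of neighbouring 5 Gy peaks of TRA2A shows such long peaks over several at 0 Gy. The peak from 23546220 to 23547766 (1547 bp, score 1057.10) lay over 3 peaks at 0 Gy that scored 79.73, 2465.16 and 63.82, and the peak from 23547878 to 23550987 (3110 bp, 1195.82) over 3 that scored 344.30, 547.82 and 158.40. At the high-coordinate end, 2 peaks at 5 Gy (139.44 and 2935.07) met 4 at 0 Gy (133.80, 82.56, 69.85 and 3100). A long peak could therefore score below the strongest short peak under it.

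At TRA2A, 6 of the 23 peaks at 0 Gy were unmatched, a lower share than the 41.9% of the whole list, with scores of 61.90 to 208.92 and a summed length of 2961 bp, and 4 of them lay in the longest stretch without a 5 Gy peak (6555 bp, 23562088 to 23568642). Of the 11 peaks at 5 Gy, 1 (1097 bp, score 234.92) had no match at 0 Gy, beside 27.0% of the whole 5 Gy list. The 1016 bp peak from 23555905 to 23556920 scored 665.86 at 5 Gy, and its 1170 bp partner scored 3100 at 0 Gy, the largest score difference among the 5 one-to-one pairs of TRA2A. Another pair of TRA2A had a short peak with a high score at 5 Gy. The peak was 288 bp long with a score of 1623.62 at 5 Gy (23552458 to 23552745) and 601 bp long with a score of 1929.48 at 0 Gy (23552271 to 23552871). Of the 3571 peaks at 5 Gy that score at least 1500, 54 (1.51%) are as short as 288 bp, and their median length is 2147 bp. The 288 bp peak was picked as the shortest TRA2A peak at 5 Gy, so the percentage describes it and tests nothing. Whether an exon lies under this peak was not analysed here.

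TRA2B spans 22231 bp of chromosome 3 (185633694 to 185655924) and is transcribed towards lower coordinates. It had 7 peaks at each dose, which covered 62.1% of it at 5 Gy and 57.6% at 0 Gy. Every one overlapped a peak of the other list, as did 73.0% of all peaks at 5 Gy and 58.1% at 0 Gy. At TRA2B the overlap was marginal for the 967 bp peak at 5 Gy that scored 176.51, which shared 24 bp (2.48%) with a 0 Gy peak. At scores of at least 250 TRA2B had 5124 bp covered at 5 Gy, against 12183 bp at 0 Gy, so this order turned. The 6550 bp nearest the 5′ end at 5 Gy, and 6228 bp at 0 Gy, held no peak. Inside the interval, the covered part of TRA2B thus began and ended at nearly the same places at both doses. Past its 3′ end, 2.88 kb away, the 5 Gy list holds a 1011 bp peak scoring 61.55. The nearest 0 Gy peak on that side is 90.9 kb away.

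The scores of TRA2B differed along the gene. In the 3 one-to-one pairs towards the 3′ end, the scores were 502.39 at 5 Gy and 501.06 at 0 Gy, then 327.56 and 271.49, then 1048.94 and 885.24. Further towards the 5′ end, 3 peaks at 5 Gy (176.51, 180.65 and 93.65) met a single 0 Gy peak of 2218 bp that scored 555.41. Next to it, 1 peak of 5574 bp at 5 Gy (236.60) lay over 3 at 0 Gy (113.13, 1065.40 and 544.62). All 3 pairs towards the 3′ end were thus level with or above 0 Gy in score, and the peaks towards the 5′ end were below the strongest 0 Gy peak they met. The 5574 bp peak is long for its score, since 6 of the 2083 peaks at 5 Gy that score from 200 to under 250 (0.288%) are at least as long. It was picked as the longest TRA2B peak at 5 Gy, so the percentage describes it and tests nothing.

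**Figure D5:**
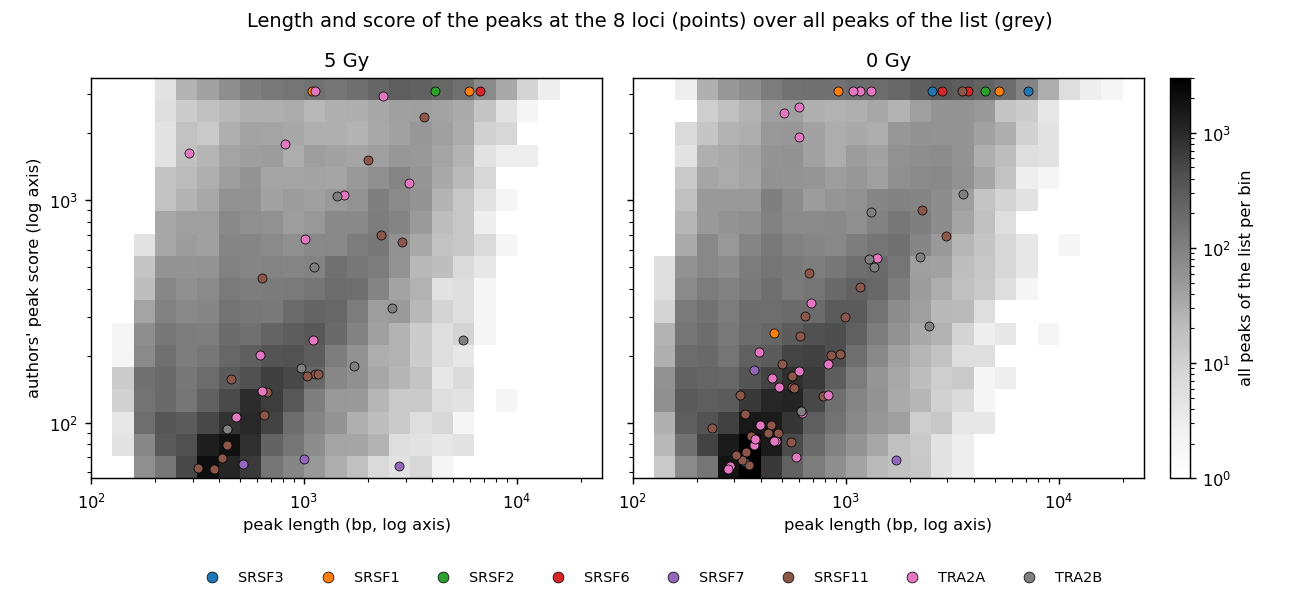
Length in bp against score of the peaks at the 8 loci (coloured points) over all peaks of the same list (grey bins, darker for more peaks), 5 Gy on the left and 0 Gy on the right, on log axes. SRSF7 lies at the long edge of the low-scoring peaks at both doses, and the 288 bp peak of TRA2A at the short edge of the high-scoring ones at 5 Gy.

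Over the 8 loci, 18 pairs of 1 peak of each list met only each other. The 5 Gy score was higher in 6 of them, lower in 9 and equal, at the tie of 3100, in 3. The share with a higher 5 Gy score, 33.3%, lies beside 32.7% of all 19750 such pairs in the lists. In 9 cases 1 peak at 5 Gy met several at 0 Gy that met no other, and in 2 cases the reverse held. In 2 further cases, at SRSF11 and TRA2A, several peaks of each list met. TRA2A and SRSF11 held 3 of the 9 each, and SRSF1, SRSF6 and TRA2B 1 each.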

How the data were processed

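RIP-seq with HuR or control IgG was done on WS1 cells at 5 Gy and 0 Gy, with 1 library per group. Per the submitters' processing notes, cutadapt 1.9.1 and Bowtie2 2.2.4 were used and the build was hg19. The peak names begin with MACS. Its version is not given in the sources used here, and strand and gene names are absent from the lists. The deposited score is the authors' peak score, whose scale is not stated.

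The genes, their hg19 intervals and the comparisons were chosen with earlier results of these data known. All 8 genes are named, and every peak at them was counted. Starts are counted from 1. Peaks matched when at least 1 bp overlapped, and covered length counts bases inside the interval. Analyses used Python 3.11.15, numpy 2.4.6 and scipy 1.17.1, and overlap counting was checked on simulated peaks. RefSeq (GRCh38.p14) gave names, overlapping genes, strands and start windows. No hg19 annotation or genome was at hand, so exons, peak sequences and other SR genes were not analysed here. Read depth is unknown.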

Additional observations from a re-analysis of the deposited data

How the results depend on the processing

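Leaving out SRSF3 or SRSF11 was chosen after seeing the data. Of 42 recomputed totals and shares over the 8 loci, 33 stayed within 1.5 times the value given (shares: within its interval) and 9 did not. The number of peaks was 15 at 5 Gy and 20 at 0 Gy with peaks within 1 kb joined, 19 and 29 at scores of at least 250, and 25 and 41 without SRSF11. Covered length at 5 Gy was 40371 bp at scores of at least 250, against 62486 bp. The matched share was 60% at 5 Gy and 34.8% at 0 Gy with a 50% reciprocal overlap. SRSF3 had 0 peaks at 5 Gy under each alternative, but no alternative could have given another result. Score cutoffs and joining cannot add a peak, and intervals widened by 5 kb do not reach the nearest 5 Gy peak, 49.2 kb away. The order of the doses by covered length turned at TRA2A, with 12956 bp at 5 Gy and 11499 bp at 0 Gy at scores of at least 100, and at SRSF7, with 0 and 371 bp. It also turned at TRA2B, with 5124 and 12183 bp at scores of at least 250, and with intervals widened by 5 kb at SRSF1 (8265 and 8696 bp) and SRSF2 (4897 and 6177 bp). No paired analysis was possible because there is only 1 library per group. Read depth, which is unknown, limits each comparison of peak number and score.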
